A study of Mus musculus with 14 samples.

Results

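The Schlafen genes are a family of mouse genes that lie together on chromosome 11 and respond to interferon, and 6 of them were followed here: Slfn1, Slfn2, Slfn4, Slfn5, Slfn8 and Slfn9. They were 6 of the 21444 genes listed in each mRNA table of macrophages in which the gene of the RNA-binding protein ELAVL1 (HuR) was floxed, with or without Cre. The 6 genes were chosen by their measured values, namely the level in each library, the difference between genotypes at each replicate number, and the AGO2 binding groups that carry their names. Those values are therefore described with no p-value, and where calls of a fit across all genes are counted, they stand beside the share of all genes called. The tables held 4 more genes of the family, Slfn3, the pseudogene-named Slfn10-ps, Slfn14 and the distant relative Slfnl1, which are given where they bear on the 6.

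Libraries labelled KO came from mice carrying ELAVL1f/f with LysM-Cre, and libraries labelled WT from mice carrying ELAVL1f/f without Cre, all of strain C57BL/6. Both genotypes therefore carried the floxed allele, and the recombinase, which is driven from the Lyz2 locus of myeloid cells, was present in KO alone. Marrow was grown into macrophages in medium holding 20% of L929 culture medium, a source of the growth factor CSF1, for 6 days by the protocol or 7 days by the design text. There were 4 KO and 4 WT mRNA libraries numbered 1 to 4 in their titles, small RNA libraries of KO 3, KO 4, WT 1 and WT 2, and 1 AGO2 PAR-CLIP library per genotype. The labels give no age or sex and do not tie a number to a mouse, so any p-value measures the spread between these libraries.

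The mRNA libraries held 8160789 to 25030262 counts in KO and 11192104 to 24681273 counts in WT. Elavl1 mRNA was not lower in the libraries labelled KO, at 69.5 ± 6.12 CPM (counts per 1000000, scaled by TMM) against 63.4 ± 2.00 CPM in WT (SD, n = 4 each), and the counts over the whole gene do not show whether the floxed part was lost. Lyz2 averaged 5063 ± 1003 CPM in KO and 12419 ± 2553 CPM in WT, and the 2 ranges did not overlap. All 8 macrophage markers, Csf1r and Adgre1 among them, were above 1 CPM in every library, and their sum was 9187 to 10750 CPM in KO libraries and 9953 to 10233 CPM in WT libraries. Libraries numbered 3 and 4 stood apart from those numbered 1 and 2 in both genotypes. The sum of 4 Y-linked genes, none of them at 0 in all libraries, was 0.121 to 0.422 CPM in numbers 3 and 4, against 67.1 to 92.4 CPM in numbers 1 and 2. In bulk RNA, fewer cells of a type and less RNA per cell cannot be told apart.

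Schlafen proteins restrain growth and translation, and the mouse family falls into groups by length. Slfn1 and Slfn2 encode short proteins: Slfn1 restrains the growth of thymocytes, and Slfn2 keeps T cells and monocytes quiescent and binds transfer RNAs. Slfn4 encodes a protein of middle length, made in myeloid cells, whose mRNA is known to fall as CSF1 drives macrophage maturation and to be induced by type I interferon. Slfn5, Slfn8 and Slfn9 encode long proteins with a helicase-like part, and SLFN5 is found in the nucleus. AGO2 is the protein that holds miRNAs, short RNAs that pair through their seed (bases 2 to 8) with target mRNAs. In PAR-CLIP, cells take up 4-thiouridine, AGO2 is crosslinked to the RNA it touches, and crosslinked uridines are read as C.

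The sequences shown first are the 2 AGO2 groups with the most reads among the 6 genes, as counted in WT, and the 3 groups that hold a miRNA seed match. A group is a cluster of overlapping reads listed by the authors, and coordinates are on mm9 as the tables give them. The Slfn5 coding group at chr11:82770747-82770772 on the plus strand was the only group listed at identical coordinates in both libraries for any of the 6 genes. The Slfn9 3′ UTR group at chr11:82794288-82794315 on the minus strand held most of the reads that Slfn9 had in WT. The Slfn5 coding groups at chr11:82774049-82774072 (KO), chr11:82774179-82774197 (KO) and chr11:82774564-82774582 (WT) held the 3 seed matches found, and capitals mark the bases complementary to the miRNA seed.
Slfn5 group in both libraries: ctaactgcgaatgactgggcctctcg
Slfn9 3′ UTR group, WT: actaaaaacataatattaagtagcactg
Slfn5 group with a miR-99 match, KO: TACGGGTtgctttcaactaacctg
Slfn5 group with a miR-186 match, KO: acaacATTCTTTacatctg
Slfn5 group with a miR-146 match, WT: AGTTCTCtacatttttctg
The miRNAs of these matches have the following RefSeq mature sequences, with the seed in capitals.
mmu-miR-99b-5p: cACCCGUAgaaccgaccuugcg
mmu-miR-99a-5p: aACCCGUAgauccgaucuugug
mmu-miR-186-5p: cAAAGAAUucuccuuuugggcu
mmu-miR-146a-5p: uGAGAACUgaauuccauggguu
mmu-miR-146b-5p: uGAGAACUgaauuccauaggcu
miR-99a and miR-99b share 1 seed, as do miR-146a and miR-146b.

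Per unit of length, by the lengths behind the deposited RPKM, Slfn2 was by far the most abundant of the 6. On the deposited RPKM scale (reads per kilobase per 1000000 mapped reads) the mean level over the 8 libraries was 161 ± 44.2 for Slfn2 (SD, n = 8), which placed it at rank 326 of the 14019 genes tested. Slfn5 followed at 15.9 ± 7.54 RPKM, Slfn1 at 5.35 ± 4.66, Slfn8 at 5.07 ± 1.79, Slfn9 at 3.88 ± 1.46 and Slfn4 at 3.74 ± 1.96 RPKM, while the median of the 14019 genes was 5.43 RPKM. Only the step between Slfn2 and Slfn5 had ranges that did not overlap, with a lowest Slfn2 library at 122 RPKM and a highest Slfn5 library at 26.4 RPKM. Slfn5 exceeded Slfn1 in 8 of 8 libraries, although their ranges overlapped. Slfn1 exceeded Slfn8 in 2 of 8 libraries and Slfn9 exceeded Slfn4 in 3 of 8, so that the order of these neighbours was that of their means only.

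The lengths behind the RPKM values, worked back from counts and RPKM, were about 13152 bases for Slfn5 and 13056 for Slfn8. They were 8853 for Slfn9 and 4543 for Slfn4, against 1906 for Slfn2 and 2132 for Slfn1. How the authors measured length is not given in the sources used here. The RPKM order therefore rests on lengths whose basis is not known. In CPM, which uses no length, the mean over all mRNA libraries was 306 ± 78.6 for Slfn2 and 207 ± 95.1 for Slfn5 (SD). It was 65.9 for Slfn8, 34.2 for Slfn9, 16.9 for Slfn4 and 11.3 for Slfn1. All 6 genes passed the filter on low counts. Slfn14 and Slfnl1 did not, with 0 to 2 counts in any library. Slfn3, a close relative of Slfn4, had 7.70 ± 1.86 RPKM in KO and 7.19 ± 0.71 in WT (SD, n = 4 each). Slfn10-ps, a relative of Slfn8 and Slfn9, had 1.76 ± 1.13 RPKM in KO and 1.93 ± 1.02 in WT. How reads shared between such near copies were counted is not given, so values of Slfn3, Slfn4, Slfn8, Slfn9 and Slfn10-ps are uncertain to that extent. RefSeq places the non-coding gene Slfn5os across Slfn5, and since the use of strand in counting is not given, reads of the pair cannot be told apart.

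The comparison of KO with WT is one of labelled genotypes, with Cre in KO alone and loss of ELAVL1 not shown by these counts. Levels differed most for the short Slfn1 and for Slfn4. Slfn1, the thymocyte growth restrainer, had 9.04, 6.16, 31.3 and 21.1 CPM in KO 1 to 4, against 7.05, 3.83, 4.74 and 7.24 CPM in WT 1 to 4. KO 3 and KO 4 stood far above every other library, KO 1 lay above all WT libraries, and KO 2 lay within the WT range. The log2 fold change was 1.57 (SE 0.50). Slfn4, the myeloid member, had 16.2, 12.8, 32.9 and 28.1 CPM in KO 1 to 4, against 11.8, 10.5, 11.3 and 11.9 CPM in WT 1 to 4. All 4 KO libraries lay above all 4 WT libraries, the WT libraries were close together, and KO 3 and KO 4 were again the highest. The log2 fold change was 0.99 (SE 0.29). An order of all KO above all WT held for 49 of the 14019 genes tested, or 0.350%.

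**Figure D1:**
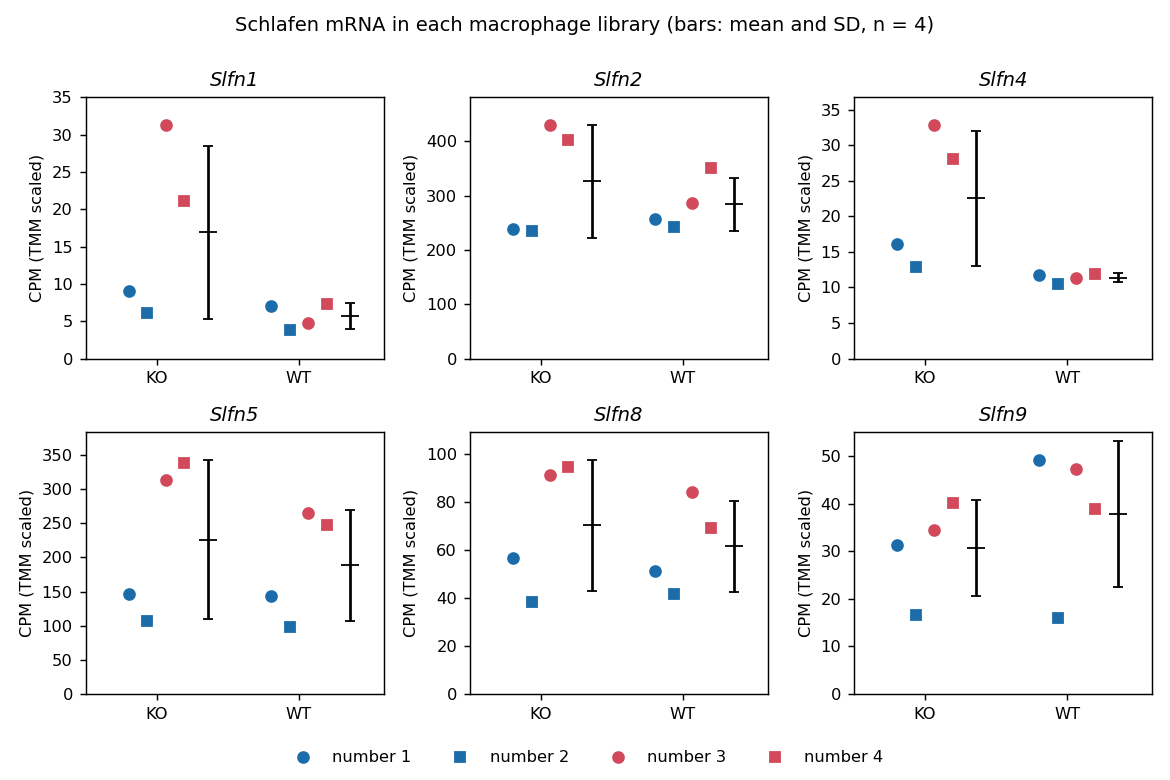
CPM (TMM scaled, linear axis from 0) of each Schlafen gene in the 4 KO and 4 WT mRNA libraries, with circles and squares for replicate numbers and black bars for mean and SD (n = 4). KO 3 and KO 4 are the highest libraries for Slfn1, at 31.3 and 21.1 CPM, and for Slfn4, at 32.9 and 28.1 CPM.

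The other 4 genes differed less between the genotypes than among libraries of 1 genotype. The SEs given with the CPM values are from the fit with genotype alone, so they include the spread between replicate numbers. With the replicate number as a block, the log2 fold change was 0.16 (SE 0.11) for Slfn2 and 0.22 (SE 0.08) for Slfn5. In that fit it was 0.16 (SE 0.10) for Slfn8 and -0.25 (SE 0.13) for Slfn9. Slfn2, the quiescence factor, had 239, 235, 430 and 403 CPM in KO 1 to 4, against 257, 242, 287 and 352 CPM in WT 1 to 4, a log2 fold change of 0.20 (SE 0.25). KO 3 and KO 4 were above all WT libraries, while KO 1 and KO 2 were below all of them. Slfn5, the nuclear long member, had 146, 107, 314 and 338 CPM in KO 1 to 4, against 143, 97.9, 265 and 248 CPM in WT 1 to 4, a log2 fold change of 0.26 (SE 0.44). The 2 genotypes overlapped, and in both the libraries numbered 3 and 4 were the high ones. Slfn8 had 56.7, 38.4, 91.1 and 94.6 CPM in KO 1 to 4, against 51.1, 41.7, 84.3 and 69.3 CPM in WT 1 to 4, a log2 fold change of 0.19 (SE 0.32). Its libraries lay in nearly the same pattern as those of Slfn5. Slfn9 had 31.3, 16.6, 34.5 and 40.1 CPM in KO 1 to 4, against 49.2, 15.9, 47.4 and 38.8 CPM in WT 1 to 4, a log2 fold change of -0.30 (SE 0.37). It was the only one of the 6 with a negative value, KO 2 and WT 2 were its lowest libraries, and the genotypes overlapped.

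At equal replicate numbers the differences were uneven. For Slfn1 the log2 ratio of KO to WT was 0.36, 0.69, 2.73 and 1.55 for numbers 1 to 4, and for Slfn4 it was 0.46, 0.28, 1.54 and 1.24. For Slfn5 it was 0.04, 0.13, 0.24 and 0.45. These 3 genes were higher in KO at all 4 numbers, an order that 9.52% of the genes tested also showed. Slfn8 had 0.15, -0.12, 0.11 and 0.45, and Slfn9 had -0.65, 0.07, -0.46 and 0.05. Slfn2 was lower in KO at numbers 1 and 2, at -0.11 and -0.04, and higher at numbers 3 and 4, at 0.58 and 0.19.

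**Figure D2:**
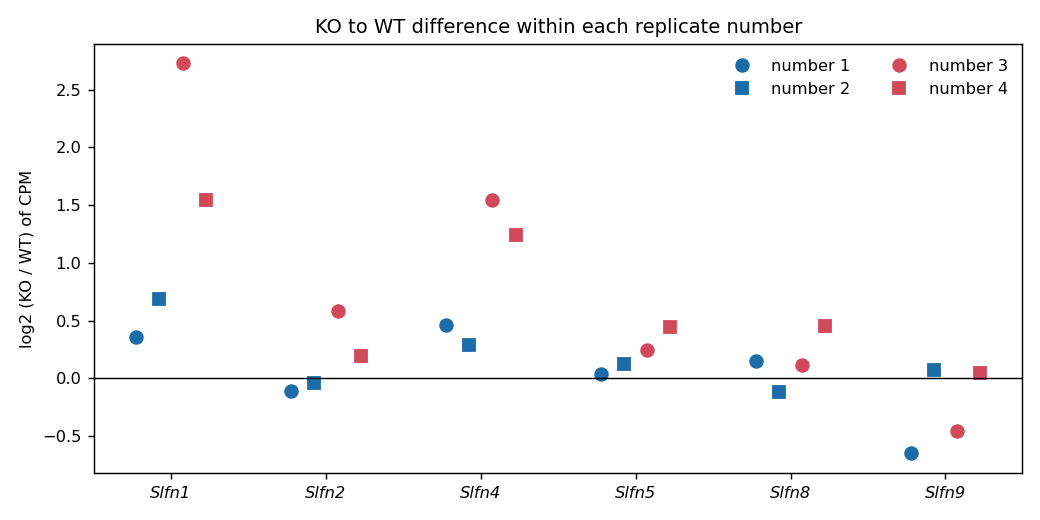
Log2 ratio of KO to WT CPM (vertical axis, 0 means equal) at each replicate number for the 6 Schlafen genes, with numbers 1 and 2 in blue and 3 and 4 in red. Slfn1 reaches 2.73 and 1.55 and Slfn4 reaches 1.54 and 1.24 at numbers 3 and 4, and the points of the other 4 genes lie between -0.65 and 0.58.

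Fitted in numbers 3 and 4 alone, with 2 libraries per genotype, the log2 fold change was 2.12 (SE 0.25) for Slfn1 and 1.39 (SE 0.13) for Slfn4. In numbers 1 and 2 alone it was 0.46 (SE 0.42) for Slfn1 and 0.37 (SE 0.26) for Slfn4. The gap between these sets, taken as an interaction term, was 1.69 (SE 0.53) on the log2 scale for Slfn1, 1.03 (SE 0.27) for Slfn4 and 0.46 (SE 0.21) for Slfn2. Since the genes were chosen on this contrast, their calls are counts beside a background and nothing is read from them. With genotype alone in edgeR, 0 of the 6 and 0 of all 14019 genes were called at an adjusted p below 0.05, or 0.00%, while 81 genes had an unadjusted p below 0.05 and DESeq2 called 3 genes, none of them a Schlafen gene. With the replicate number as a block, edgeR called 0 of the 6 against 0.0357% of all genes, and DESeq2 called Slfn4 against 0.585%. Within numbers 3 and 4, edgeR called Slfn1 and Slfn4 against 0.0975% of 14361 genes. Leaving out KO 3 gave log2 fold changes of 1.08 for Slfn1, 0.74 for Slfn4 and 0.03 for Slfn2.

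Markers of other cells also differed between the libraries, not all in 1 direction. Stromal markers (7 genes, 6 of them above 1 CPM in some library, none at 0 throughout) summed to 43.6 and 52.0 CPM in KO 3 and KO 4, against 6.30 and 27.8 CPM in WT 3 and WT 4, and to 1.79 to 3.73 CPM in the libraries numbered 1 and 2. Neutrophil and granulocyte precursor markers (12 genes, 8 above 1 CPM) summed to 23.6 to 64.8 CPM in KO and 10.9 to 36.1 CPM in WT, with KO 2, not KO 3 or KO 4, the highest. Of 9 T cell markers only Cd4 exceeded 1 CPM, at 107 and 82.6 CPM in KO 3 and KO 4 and at 102 and 88.4 CPM in WT 3 and WT 4. Conventional dendritic cell markers (5 genes, 2 above 1 CPM) summed to 38.3 and 22.6 CPM in KO 3 and KO 4, against 38.2 and 141 CPM in WT 3 and WT 4, and to 2.93 to 13.1 CPM in numbers 1 and 2. Of the 2 tested, however, 1 was higher and 1 was lower in numbers 3 and 4. The lower sums in numbers 3 and 4 were those of B cell markers (5 genes, 2 above 1 CPM), at 27.1 to 32.0 CPM in numbers 3 and 4 and 42.3 to 54.1 CPM in numbers 1 and 2, and of plasmacytoid dendritic cell markers (4 genes, 3 above 1 CPM), at 337 to 444 CPM in numbers 3 and 4 and 702 to 860 CPM in numbers 1 and 2. These sums did not speak for each gene. Of 3 plasmacytoid genes tested, 2 were higher and 1 was lower in numbers 3 and 4. Of 2 B cell genes tested, 1 was higher and 1 was lower. The plasmacytoid list includes Bst2, which is also an interferon response gene and was lower in numbers 3 and 4. Natural killer, mast and erythroid cell markers summed to at most 2.32 CPM in any library. The part of these cells in the Schlafen levels was not tested.

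Between the number sets, Slfn5, Slfn8 and Slfn2 had all 4 libraries numbered 3 and 4 above all 4 numbered 1 and 2, an order that 25.1% of the genes tested also showed. The level in each library was in view when the genes were chosen, so these values too are a description. Numbers 3 and 4 were compared with numbers 1 and 2 by edgeR with genotype in the model, and 7181 of 14019 genes, or 51.2%, were called. Those called higher in numbers 3 and 4 were 25.6% of the genes tested. Among the 6 genes Slfn2, Slfn4, Slfn5 and Slfn8 were called, with higher values in numbers 3 and 4, and nothing is read from that count. Slfn5 averaged 291 ± 41.9 CPM in numbers 3 and 4 and 124 ± 24.7 CPM in numbers 1 and 2 (SD, n = 4 each), with no overlap, a log2 difference of 1.23 (SE 0.15). Slfn8 averaged 84.8 ± 11.2 CPM in numbers 3 and 4 and 47.0 ± 8.42 CPM in numbers 1 and 2, again with no overlap, a log2 difference of 0.85 (SE 0.15). Slfn2 averaged 368 ± 63.0 CPM in numbers 3 and 4 and 243 ± 9.62 CPM in numbers 1 and 2, also with no overlap, a log2 difference of 0.58 (SE 0.12).

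The remaining genes did not part so cleanly. Slfn4 averaged 21.0 ± 11.1 CPM in numbers 3 and 4 and 12.8 ± 2.42 CPM in numbers 1 and 2, a log2 difference of 0.58 (SE 0.21). Its sets overlapped, and the call was lost without KO 1, KO 2, KO 3 or KO 4, at log2 differences of 0.53, 0.38, 0.45 and 0.54. Slfn1 had a log2 difference of 1.0 (SE 0.38), uncalled in edgeR with all libraries, and was called without WT 1, at 1.43, without WT 3, at 1.28, in DESeq2, at 0.97, and with no filter, at 1.04. Slfn9 had 0.53 (SE 0.32), uncalled, and without WT 1 it was called at 0.96. Of their relatives, Slfn10-ps had a log2 difference of 1.52 (SE 0.20), and Slfn3 had 0.16 (SE 0.18). The sets also differ in Y-linked and stromal genes, so sex, batch and cell makeup cannot be told apart as sources of the set difference.

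Split by genotype, the set difference of Slfn1 and Slfn4 was large in KO and near 0 in WT. In KO alone, where 31.1% of 14249 genes were called, the log2 difference was 1.82 (SE 0.29) for Slfn1, 1.09 (SE 0.19) for Slfn4, 1.37 (SE 0.19) for Slfn5, 0.98 (SE 0.20) for Slfn8 and 0.81 (SE 0.13) for Slfn2, and edgeR called these 5. In WT alone, where 8.32% of 14010 genes were called, it was 0.14 (SE 0.40) for Slfn1 and 0.06 (SE 0.25) for Slfn4, and of the 6 genes only Slfn5 was called, at 1.10 (SE 0.25). The gap between the genotypes is the interaction term given above, which the choice of the genes used, so these values are a description.

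**Figure D3:**
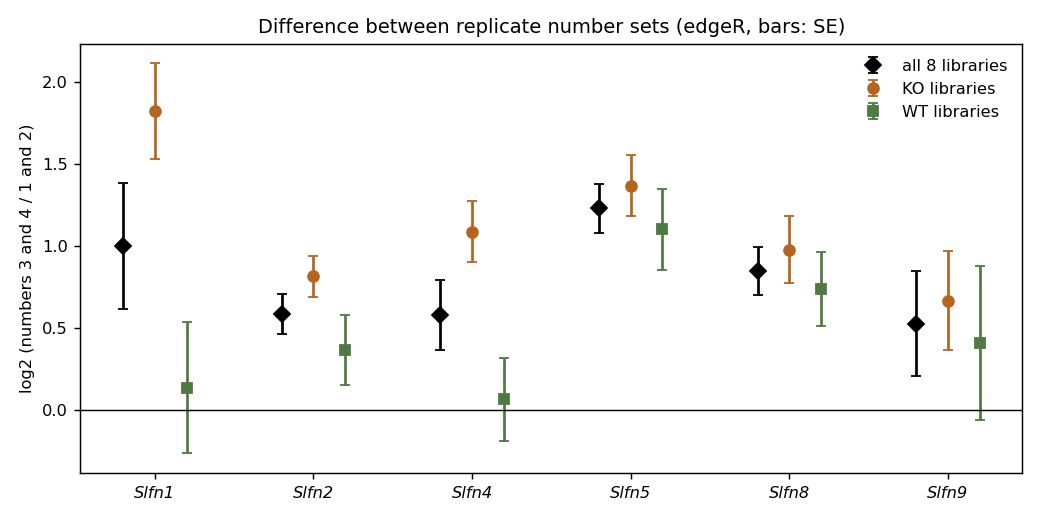
Log2 difference between libraries numbered 3 and 4 and libraries numbered 1 and 2 (points, with SE bars, from edgeR) for the 6 Schlafen genes in all 8 libraries, in the KO libraries and in the WT libraries. All 6 genes have positive values in both genotypes. For Slfn1 and Slfn4 the WT values lie near 0, at 0.14 and 0.06, and the KO values at 1.82 and 1.09.

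Genes with the closest profile over the 8 libraries were found by the root mean square difference of centred log2 CPM, among 13106 genes with a symbol. Slfn5 was closest to Vma21 (0.06), an assembly factor of the vacuolar proton pump, then to the interferon-inducible Ifi204 (0.12) and Ifi207 (0.13), against a spread of 0.66 of Slfn5 itself. Slfn8 was closest to Pdlim5 (0.08), Gcc2 (0.10) and Btaf1 (0.11). Slfn4 was closest to Gm1966 (0.14), the complement gene C4a (0.14) and Ifi206 (0.22). Slfn1 had Slfn4 itself as its nearest gene (0.41), followed by C4a (0.44) and Ms4a4c (0.45), against a spread of 0.97. Slfn2 was closest to Gm7984 (0.09), Arid5b (0.09) and Pank2 (0.10). Slfn9 was closest to Atad2 (0.11), Phf6 (0.12) and Polq (0.13), and Atad2 and Polq are known from chromatin and DNA repair in dividing cells. Within the family Slfn5 and Slfn8 differed by 0.21, the smallest distance of any pair, and Slfn1 and Slfn9 by 0.95, the largest. The 8 profiles share the split between number sets, and with profiles centred within each set only 5 of the 18 nearest genes were the same.

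Interferon response genes were mostly higher in KO in numbers 3 and 4, and were split in direction in numbers 1 and 2. Of 39 interferon response genes tested, 37 were higher in KO over all 8 libraries, with a median log2 fold change of 0.19 against 0.00 for all genes, and 0 were called. In numbers 3 and 4 alone 39 of 39 were higher in KO, with a median of 0.41 against -0.01 for all genes, of which 47.0% were higher. In numbers 1 and 2 alone 20 of 39 were higher, with a median of 0.01. The interaction of genotype and number set, fitted by edgeR, called 0 of all 14019 genes, with 133 at an unadjusted p below 0.05, and DESeq2 also called 0. The largest values over all libraries were those of Oasl1, at 0.72 (SE 0.39), Oasl2, at 0.52 (SE 0.39), Zbp1, a sensor of nucleic acids, at 0.51 (SE 0.23), and Ifi27l2a, at 0.45 (SE 0.22). Of 16 interferon receptors and signal transducers tested 15 were higher in KO, with a median of 0.11, led by the transcription factor Irf7 at 0.59 (SE 0.26), the negative regulator Usp18 at 0.39 (SE 0.30), Stat2 at 0.27 (SE 0.24) and Irf1 at 0.24 (SE 0.23). None passed the test. Between the number sets 8 interferon response genes rose in numbers 3 and 4, Ifi204, Oasl2 and Ifit3 among them, and 4 fell, Oas3 and Bst2 among them, against 25.6% of all genes called higher and 51.2% called in either direction.

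**Figure D4:**
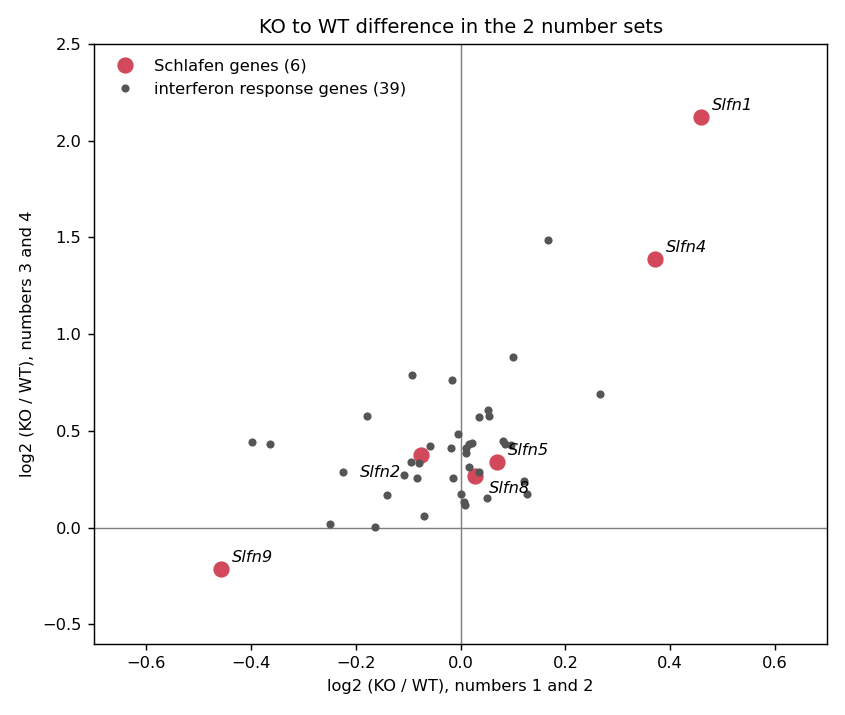
Log2 fold change of KO over WT fitted in libraries numbered 3 and 4 (vertical axis) and in libraries numbered 1 and 2 (horizontal axis) for the 6 Schlafen genes (red) and 39 interferon response genes (grey). All 39 grey points lie above 0 on the vertical axis, Slfn1 and Slfn4 lie at 2.12 and 1.39 on it, and Slfn9 is the only red point below 0 on both axes.

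Genes of the CSF1 axis and of monocyte maturation were described because Slfn4 is known to fall along that path. Of 17 tested, 12 were higher in KO, with a median log2 fold change of 0.30, and 0 were called by edgeR. The largest were the monocyte genes Plac8 at 1.74 (SE 0.39) and Ly6c2 at 1.35 (SE 0.54), followed by Fn1 at 0.94 (SE 1.07) and the chemokine receptor Ccr2 at 0.83 (SE 0.63). Plac8 had 7.77, 8.31, 15.9 and 12.6 CPM in KO 1 to 4, against 2.42, 5.5, 1.8 and 3.82 CPM in WT 1 to 4, with no overlap. Of 12 genes of quiescence and transfer RNA handling 7 were higher in KO and 5 lower, with a median of 0.01 and 0 called. The largest were Ang, which cuts transfer RNAs, at 0.22 (SE 0.27), Klf2 at -0.19 (SE 0.67), Btg2 at 0.15 (SE 0.17) and Tob1 at -0.12 (SE 0.28).

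The windows around the RefSeq start sites of the genes (250 bases before and 50 after, build GRCm38.p6) were searched on both strands for GAAANNGAA, a core of the interferon-stimulated response element. In the windows of the 6 genes it was found in Slfn5, Slfn8 and Slfn9, and in no window of Slfn1, Slfn2 or Slfn4, whereas 8.56% of 32851 such windows hold it. Slfn5 held it at 2 places, whose first bases lie 155 and 132 bases before the start, Slfn8 at 47 bases and Slfn9 at 44 bases before the start, Slfn8 also having a second RefSeq start from which the same match lies 135 bases upstream. The 2 matches of Slfn5 do not overlap. TTCNNNGAA, the core of a gamma-activated site, was in none of the 6, against 8.30% of windows. A match is a description of letters and not of binding. Slfn5 and Slfn8 had higher values in numbers 3 and 4 in both genotypes, and Slfn1 and Slfn4 differed most between genotypes. Slfn2, with no match, also had higher values in numbers 3 and 4, at log2 differences of 0.81 in KO and 0.37 in WT. Slfn9, with a match, had a log2 difference of 0.53 (SE 0.32) over all libraries, and its sets overlapped. The windows of Slfn5, Slfn8, Slfn1 and Slfn4 are printed with the match in capitals.
Slfn5, chr11:82951852-82952151, plus strand: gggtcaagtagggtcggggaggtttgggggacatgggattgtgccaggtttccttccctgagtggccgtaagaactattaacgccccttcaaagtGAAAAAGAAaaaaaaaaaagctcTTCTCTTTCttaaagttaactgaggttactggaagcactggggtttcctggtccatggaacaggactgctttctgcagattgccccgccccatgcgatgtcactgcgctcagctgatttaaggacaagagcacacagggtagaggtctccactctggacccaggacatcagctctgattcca
Slfn8, chr11:83020761-83021060, minus strand: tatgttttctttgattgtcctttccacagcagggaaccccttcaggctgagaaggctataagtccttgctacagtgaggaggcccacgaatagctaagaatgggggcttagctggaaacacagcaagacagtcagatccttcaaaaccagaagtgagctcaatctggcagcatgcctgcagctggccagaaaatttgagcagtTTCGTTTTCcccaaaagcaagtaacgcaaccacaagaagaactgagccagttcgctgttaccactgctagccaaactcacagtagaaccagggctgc
Slfn1, chr11:83116570-83116869, plus strand: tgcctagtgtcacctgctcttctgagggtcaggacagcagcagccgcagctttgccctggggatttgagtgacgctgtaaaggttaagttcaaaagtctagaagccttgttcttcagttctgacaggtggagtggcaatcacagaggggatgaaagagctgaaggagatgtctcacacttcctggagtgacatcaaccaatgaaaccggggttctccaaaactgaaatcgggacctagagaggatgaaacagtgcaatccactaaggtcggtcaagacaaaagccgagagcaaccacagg
Slfn4, chr11:83174936-83175235, plus strand: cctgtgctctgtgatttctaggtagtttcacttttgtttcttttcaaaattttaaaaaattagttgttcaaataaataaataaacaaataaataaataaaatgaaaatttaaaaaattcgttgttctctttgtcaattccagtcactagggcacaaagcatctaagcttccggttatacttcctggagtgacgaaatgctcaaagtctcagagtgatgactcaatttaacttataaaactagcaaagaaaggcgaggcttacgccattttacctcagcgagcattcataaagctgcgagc

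AGO2 groups of the family were listed in both libraries. The smallest group listed in either library held 5 reads, so a place with fewer reads may go unlisted. Of the groups of the 6 genes, 9 of 11 in KO (81.8%) and 13 of 15 in WT (86.7%) had no overlapping group in the other library, against 60.9% of all named groups in KO and 61.4% in WT. Among all coding groups it was 63.2% in KO and 66.9% in WT. KO had 11 groups with 195 reads among 85458 groups with 6445262 reads, and WT had 15 groups with 381 reads among 66451 groups with 6287870 reads. That is 30.3 reads per 1000000 reads in groups (RPM) in KO (95% exact Clopper-Pearson interval 26.2 to 34.8) against 60.6 in WT (54.7 to 67.0), a ratio of 0.499. With 1 library per genotype there is no test, no molecular identifiers are recorded, and intervals cover counting error only. The ratio was 0.776 without Slfn9 and 0.798 with Slfn10-ps added, both tried after the values were seen. Over 8505 genes with groups in both libraries the median log2 ratio of RPM, KO over WT, was -0.04, with quartiles at -0.72 and 0.81. Slfn4 and Slfn9, with no group listed in KO, are not among those genes.

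Slfn5 had more reads than any other of the 6 genes in both libraries. It had 9 groups with 171 reads in KO, or 26.5 RPM (22.7 to 30.8), against 4 groups with 148 reads in WT, or 23.5 (19.9 to 27.6). The coding group listed at the same place in both libraries had 37 reads in KO and 112 reads in WT, every read carrying the conversion at 1 location. It was 21.6% of the Slfn5 reads in KO and 75.7% in WT. A second pair overlapped in the 3′ UTR, with 7 reads and no conversion in KO and 13 converted reads in WT. The other 7 groups of KO and 2 groups of WT had no overlapping group in the other library.

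Slfn9 had no group listed in KO, against 4 groups with 136 reads in WT, or 21.6 RPM (18.1 to 25.6). Its 3′ UTR group, printed above, held 107 of these reads with conversions at 2 locations, the only group of the 6 genes with more than 1. Its 3 coding groups held 6, 9 and 14 reads. Slfn9 mRNA itself was 30.6 ± 10.03 CPM in KO and 37.8 ± 15.3 CPM in WT (SD, n = 4 each), with overlapping ranges. Among 856 genes with 4 groups in WT, 33 (3.86%) had none listed in KO.

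Slfn2 had 1 group with 9 reads in KO, or 1.40 RPM (0.639 to 2.65), against 5 groups with 70 reads in WT, or 11.1 (8.68 to 14.1). In WT 3 of these lay in the 5′ UTR, with 9, 20 and 11 reads, and 2 in coding sequence, with 13 and 17 reads, and all 5 held a conversion. The most upstream one matched, letter for letter, RefSeq sequence that runs from 21 bases before the annotated start into its first base. The KO group lay in coding sequence and overlapped none of them. Among 594 genes with 5 groups in WT, 60 (10.1%) had 1 or none in KO. Slfn2 mRNA was 327 ± 104 CPM in KO and 284 ± 48.7 CPM in WT.

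The other members had little AGO2 signal. Slfn8 had 1 coding group in each library, with 15 reads in KO and 13 in WT, at different places. Slfn4 had no group listed in KO and a single intronic group of 14 unconverted reads in WT. Slfn1 had no group listed in either library. The WT group of Slfn8 differs from a WT group of Slfn10-ps of equal length, 25 bases, at 1 base (C24T, the Slfn8 base first, counted from the 5′ end), which shows how alike the copies are at the size of a group. Slfn10-ps had 3 groups in each library, with 444 reads in KO and 400 in WT, and 1 unconverted group of 16 bases at the same place held 383 of the reads in KO and 355 in WT.

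**Figure D5:**
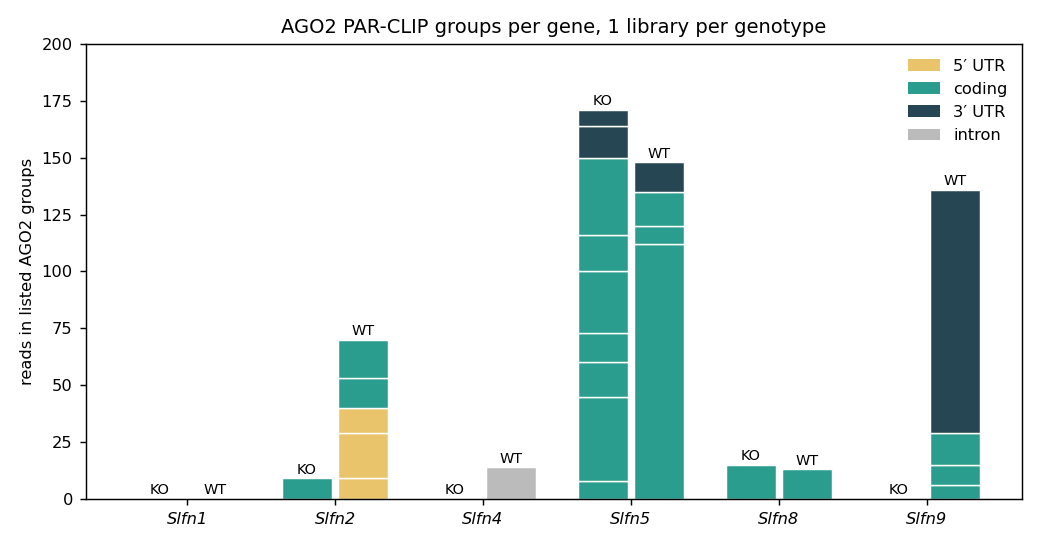
Reads in listed AGO2 groups (vertical axis, linear from 0) of each Schlafen gene in the KO and WT PAR-CLIP libraries, 1 library each, with every block a group coloured by its annotation. Slfn5 has 171 reads in KO and 148 in WT, Slfn2 has 9 and 70, and Slfn9 has a bar in WT alone, at 136 reads.

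By annotation the groups of the 6 genes lay mostly in coding sequence. In KO 9 of 11 groups (81.8%) were coding and 2 were in the 3′ UTR, against 22.6% coding and 40.7% 3′ UTR among all groups with a gene name. In WT 9 of 15 (60.0%) were coding, 3 were in the 5′ UTR and 2 in the 3′ UTR, against 24.96% coding and 51.3% 3′ UTR among all groups with a gene name. A conversion was present in 7 of 11 groups in KO and 12 of 15 in WT, against 59.0% of named groups in KO and 73.8% in WT. Groups of 1 gene share its mRNA and are not replicates, so the shares are descriptions.

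Seed matches were found in 3 groups. The 40 miRNAs with the largest mean share of small RNA counts were used, of which 36 had a RefSeq mature sequence, giving 22 different 7-base sites. Of the groups of the 6 genes, 2 of 11 in KO (18.2%) and 1 of 15 in WT (6.67%) held 1 of them, all coding groups of Slfn5, against 12.1% of all named groups in KO and 13.99% in WT. The KO group with a match to miR-99a and miR-99b held 15 reads, all converted, and its site TACGGGT occurs in 3 of 9668 coding groups of KO, or 0.0310%. The KO group with the miR-186 match held 13 unconverted reads, and its site ATTCTTT occurs in 0.331% of coding groups. The WT group with the miR-146 match held 15 unconverted reads, and its site AGTTCTC occurs in 0.149% of 10747 coding groups. miR-146a was the fifth most abundant of these miRNAs, at 3.80% and 3.42% of counts in KO 3 and KO 4 and 4.17% and 4.71% in WT 1 and WT 2. miR-99b had 0.965% and 1.61% in KO 3 and KO 4 and 1.23% and 1.55% in WT 1 and WT 2. In these small RNA libraries genotype and number set cannot be told apart, and the Slfn9 3′ UTR group held none of the 22 sites.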

How the data were processed

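For the 8 mRNA libraries the deposited tables give, under their headers, counts and RPKM of 21444 Ensembl genes. For 4 small RNA libraries the authors deposited counts of 485 mature miRNAs, and for PAR-CLIP they deposited AGO2 groups with read counts, conversion counts and mm9 positions. Per the submitters' processing notes, CASAVA 1.8.2 and Bowtie 0.12.7 were used. No counter, strand setting, rule for multi-mapped reads or group caller is given in the sources used here. The miRNA file of KO 4 has 1 column headed with another sample's name, which was not used.

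Symbols were found for 19328 genes. KO and WT mRNA were compared on the deposited counts with edgeR 4.0.16 in R 4.3.3 (quasi-likelihood test, TMM scaling, filterByExpr, Benjamini-Hochberg adjusted p below 0.05), with genotype alone in the model. DESeq2 1.42.0 was an alternative. SEs are the log2 fold change over the square root of F. CPM is scaled by TMM, and profiles used a prior count of 2. The number sets were compared with genotype in the model; their p-values for the 6 genes were planned but are not printed, since the level in each library was in view when the genes were chosen. The fits were checked on simulated counts. Sequences are from the PAR-CLIP tables and RefSeq (GRCm38.p6). Mature miRNA sequences matched for 36 of 40 miRNAs and promoter windows for all 6 genes.

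Whether equal numbers pair the libraries was checked by correlating deviations from group means. KO and WT of the same number gave 0.770, 0.810, 0.745 and 0.801, all above 0.1, so the number was also fitted as a block. KO 3 with WT 4 gave 0.832, however, and KO 4 with WT 3 gave 0.764, so within numbers 3 and 4 the pairs are not distinct. KO 1 with WT 2 gave 0.344 and KO 2 with WT 1 gave 0.241, lower than the equal numbers but also above 0.1. The limit of 0.1 therefore cannot tell equal numbers from libraries of the same number set.

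The genes and lists were chosen with earlier results of these data known. The named genes are all Schlafen genes, the 3 closest profiles of each, and the 4 largest changes of each list. Alternatives covered scaling, filter, tool, left-out libraries, block, number set and PAR-CLIP minimums.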

Additional observations from a re-analysis of the deposited data

Results flagged for a closer look

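Slfn2 was singled out because both of its differences between genotypes point one way in one number set and the other way in the other. The log2 ratio of KO to WT was 0.58 and 0.19 at numbers 3 and 4, a mean of 0.389, against -0.11 and -0.04 at numbers 1 and 2. As an interaction term the gap between the sets was 0.46 (SE 0.21) on the log2 scale. Its p is not used, since Slfn2 was chosen on this contrast, so the difference counts as not tested. The pattern was not particular to Slfn2. Its relative Slfn3 had 0.43 and 0.27 at numbers 3 and 4, against -0.04 and -0.38 at numbers 1 and 2. In 12 groups of 4 libraries, 1 per gene and genotype, no library stood apart by Dixon's 95% criterion.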

How the results depend on the processing

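The number of genes called between KO and WT depended on the model. Against 0 in edgeR with genotype alone, DESeq2 called 3, the replicate block 5 (also with RLE scaling), the block in DESeq2 82, the block with no filter 338, the number set as a block 1 and numbers 3 and 4 alone 14. With genotype alone, leaving out any 1 library gave 0. With the replicate block, leaving out both libraries of a number gave 3 to 29. Slfn4 was called under the block in DESeq2, against 0.585% of all genes. Slfn1 and Slfn4 were called under the block with no filter, against 1.58% of 21444 genes, and within numbers 3 and 4, against 0.0975%. With the filter and all 8 libraries kept, the block in edgeR called none of the 6 genes. Without both libraries of number 2 it called Slfn4, against 0.204% of 14192 genes. The cause was not tested. Between number sets 4426 genes were called in KO alone and 1165 in WT alone, each with 4 of the 8 libraries. Of the 6 genes, 3 kept their place in the RPKM order in WT alone and 3 in numbers 1 and 2 alone.

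The AGO2 ratio of 0.499 was 0.411 for groups of 20 reads or more and 0.204 in 3′ UTRs alone. It was 0.398 scaled to numbers of groups, and 0 for groups with 2 conversion locations. Of such groups the 6 genes had none in KO and 1, that of Slfn9, in WT. Changes tried after seeing the data gave 0.776 without Slfn9 and 0.798 with Slfn10-ps. Seed matches were in 3 groups, or 5 with 6-base sites. With profiles centred within number sets 5 of 18 nearest genes were shared. No direction was reversed among the member values called, but some values not called did change sign. For KO over WT, Slfn2 had 0.20 over all libraries and -0.08 in numbers 1 and 2 alone. The interaction term of Slfn9 was 0.26 over all libraries and -0.77 without WT 1. With 1 PAR-CLIP library per genotype, the AGO2 ratios have no replicate check.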
